A study of Homo sapiens with 16 samples.

Results

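The comparison described here is that of 2R6R-HNK given together with estradiol (E2+2R6R-HNK) against E2 alone, in HMC3, an established line of human microglial cells. Its members are the 4 libraries whose labels give these treatments, 2 for each, out of 16 libraries under 8 conditions. The E2 cells received 0.1 nM estradiol, the E2+2R6R-HNK cells received 0.1 nM estradiol and 400 nM 2R6R-HNK, and all were treated for 24 h in 6-well plates after a period in charcoal-stripped serum and then without serum. The other 6 conditions, used below only where they show how this response differs, were vehicle, 400 nM ketamine, 400 nM 2R6R-HNK, 400 nM 2S6S-HNK, and 0.1 nM E2 with 400 nM ketamine or 400 nM 2S6S-HNK. Total RNA was made into amplified cDNA libraries and sequenced as paired reads. Separate cultures for replicate libraries are not stated in the sources used here, so p-values measure the spread between these libraries, which may be technical.

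2R6R-HNK, or (2R,6R)-hydroxynorketamine, is a metabolite of the anaesthetic and antidepressant ketamine. 2S6S-HNK is its mirror image (enantiomer), with the same atoms and bonds and the opposite arrangement at both named carbons. Ketamine blocks the NMDA class of glutamate receptors, while hydroxynorketamines have been studied for effects that do not need that block. Estradiol is the main circulating estrogen and acts through the nuclear receptors ESR1 and ESR2 and the membrane receptor GPER1. Microglia are the resident immune cells of the brain, and the study asked how ketamine and its metabolites change gene expression in such cells with and without estradiol.

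The 4 libraries held 62267790 and 58865355 counts for E2 and 75331706 and 72264098 for E2+2R6R-HNK, within the range of 55300614 to 81646165 over all 16. The floor used for a count of 0, 3 counts, corresponded to 0.0482 and 0.0510 CPM (counts scaled to the same library size) in the E2 libraries and to 0.0398 and 0.0415 CPM in the E2+2R6R-HNK libraries. Replicates differed by more than counting noise, with a chi-square per gene of 2.84 for E2 and 2.99 for E2+2R6R-HNK. One feature of the libraries touches all results below. In Euclidean distance between log2 CPM profiles, the mean of the E2+2R6R-HNK libraries lay 35.8 from that of 2S6S-HNK given without E2, 45.1 from E2+2S6S-HNK and 59.1 from E2, and 56.4 from 2R6R-HNK without E2. The nearest library to each of the 2S6S-HNK libraries was an E2+2R6R-HNK library, at 49.6 and 47.6, and not its own replicate, at 50.9. Lane and preparation batch are not given for any library, so a batch cannot be told apart from the treatment, and no part of it in these results was tested.

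Markers of the cell types were checked first. Of 20 microglial markers, 6 passed the filter on low counts, and 7 were at 0 counts in all 4 libraries, namely PTPRC, SPI1, TYROBP, C1QA, C1QB, C1QC and SALL1. The defining receptors CX3CR1 and P2RY12 reached at most 2 counts in any of the 4, and TMEM119 at most 4. The summed microglial list gave 87.2 and 88.2 CPM with E2 and 98.4 and 103 CPM with E2+2R6R-HNK, and the lysosomal marker CD68 had 1256 and 1122 counts against 1746 and 1594. In that list 3 of 6 tested members rose and 1 fell, the receptor gene CSF1R, from 59 and 49 counts to 33 and 29. The summed fibroblast and pericyte list gave 22239 and 22477 CPM against 24457 and 24650 CPM. That sum was mostly FN1, at 14810 and 14537 CPM with E2 and 17507 and 17589 CPM with E2+2R6R-HNK. Of the 11 tested members of that list 3 rose, FN1 among them, and 5 fell, COL1A1 among them. The summed epithelial list gave 694 and 701 CPM against 465 and 480 CPM. The epithelial sum was mostly KRT18, which fell with KRT8. CDH1, encoding E-cadherin, rose from 1.46 and 1.22 CPM to 3.15 and 3.23 CPM, and MUC1 rose as well. The labelled cell line thus lacked most defining transcripts of microglia at this depth. In bulk RNA, fewer cells of a kind and less RNA per cell cannot be told apart. The estrogen receptor gene ESR1 had 0 counts in all 4 libraries, while ESR2 had 37 and 28 counts with E2 and 17 and 28 with E2+2R6R-HNK, and GPER1 had 84 and 92 against 58 and 58.

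With E2 present, 2R6R-HNK raised among others the adhesion gene KIRREL3, the kinase gene CDK18 and the guidance gene SEMA5A, and lowered among others the protease gene CPA4 and the keratin genes KRT7 and KRT80. Of 16004 genes tested, 572 (3.57%) were called, meaning an edgeR adjusted p under 0.05 and at least a doubling or halving, of which 355 (2.22%) were higher and 217 (1.36%) were lower. The number was 371 when at least 10 counts were required in every library. Without the limit on fold change 8082 genes (50.5%) passed, 4019 (25.1%) higher and 4063 (25.4%) lower, and the middle 80% of all log2 fold changes ran from -0.48 to 0.55. Many of the 572 were at low levels, with a median mean level of 0.931 CPM for the genes called higher and 0.656 CPM for those called lower, against 14.5 CPM for all genes tested. At a mean of 5 CPM or more, 63 genes were called higher and 36 lower. The 12 largest rises and 12 largest falls among these, with no overlap between the groups, are described next. They were chosen by this contrast, so their size is a description.

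KCNAB2, a cytoplasmic beta subunit of voltage-gated potassium channels, stood at 2.36 and 3.66 CPM with E2 and at 13.7 and 13.9 CPM with E2+2R6R-HNK, a log2 fold change of 2.20 ± 0.12 (SE, n = 2 per group). IGFBP5, which binds insulin-like growth factors outside the cell, went from 9.82 and 7.85 CPM to 35.1 and 35.4 CPM, and its log2 fold change was 1.99 ± 0.08. Both groups were well apart in these genes, and the E2 libraries were the more variable. TNXB, encoding the matrix glycoprotein tenascin-X, went from 3.22 and 3.21 CPM to 12.4 and 12.7 CPM. HTRA1, a secreted serine protease, went from 3.06 and 3.37 CPM to 12.7 and 11.6 CPM. The exons of TNXB overlap those of CYP21A2 by 298 bases, and a partial copy of TNXB lies nearby, so its count could include reads of either. Reads of KCNAB2 and IGFBP5 could likewise include those of NPHP4 and DIRC3-AS1 on the opposite strand, which overlap them by 212 and 487 bases, because the strand of counting is not stated. The same limit holds for HTRA1, KIRREL3, SEMA5A, ALDH1L1 and LMF1, whose exons overlap opposite-strand genes by 159 to 436 bases, and among the falls described below for KRT7, CRISPLD2 and IGFN1 (89 to 282 bases).

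At higher levels, KIRREL3, an immunoglobulin-family adhesion molecule of synapses and kidney, showed the steadiest rise, from 33.9 and 32.6 CPM to 109 and 114 CPM (log2 fold change 1.75 ± 0.04, edgeR adjusted p = 5.35e-35). It lies on chromosome 11 at 126293253 to 126873355 on the minus strand (GRCh37). CDK18, a cyclin-dependent kinase, went from 19.5 and 17.8 CPM to 63.1 and 62.9 CPM, and no annotated gene overlaps its exons (chromosome 1, 205473724 to 205501921). SEMA5A, a semaphorin that guides axons, went from 15.4 and 14.1 CPM to 45.7 and 46.8 CPM. In each of these genes every E2+2R6R-HNK library exceeded every E2 library. The other rises were ABCA3, a lipid transporter, at 1.67, EMID1 at 1.58, the folate enzyme gene ALDH1L1 at 1.55, the corepressor gene TLE2 at 1.50 and the lipase maturation factor gene LMF1 at 1.48, all as log2 fold changes. ALDH1L1 also serves as an astrocyte marker. The summed astrocyte list stood at 122 and 127 CPM with E2 and at 129 CPM in both E2+2R6R-HNK libraries, with AQP4 at 0 counts in all 4. That sum was mostly GJA1, and SOX9 of the same list fell from 437 and 411 counts to 190 and 191.

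Among the falls, KLF2, a zinc finger transcription factor known from endothelial and immune cells, dropped from 17.4 and 17.6 CPM to 4.44 and 4.11 CPM (log2 fold change -2.04 ± 0.10, edgeR adjusted p = 2.35e-22). CPA4, a secreted metallocarboxypeptidase, dropped from 222 and 221 CPM to 54.9 and 58.5 CPM (log2 fold change -1.97 ± 0.03, edgeR adjusted p = 9.12e-43). Its gene lies on chromosome 7 at 129932974 to 129964020 on the plus strand (GRCh37), and no other annotated gene overlaps its exons. The most abundant of the 12 was KRT7, a keratin of simple epithelia, at 605 and 607 CPM with E2 and 197 and 201 CPM with E2+2R6R-HNK. KRT80, another keratin, stood at 241 and 239 CPM against 87.7 and 89.997 CPM. RHOB, a small GTPase of endosomes and actin, stood at 238 and 243 CPM against 80.3 and 78.4 CPM. Replicates of these abundant genes lay within a few percent of each other and the groups did not overlap.

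ID1 and ID3 encode inhibitors of basic helix-loop-helix transcription factors and are classical targets of bone morphogenetic protein signaling. ID3 was at 33.1 and 32.3 CPM with E2 and at 9.35 and 9.29 CPM with E2+2R6R-HNK. ID1 was at 10.5 and 9.005 CPM against 3.15 and 2.89 CPM. In the family, a list made after these values were seen, 3 of 4 members fell, and ID2 had a log2 fold change of -0.38. CYP1B1, a cytochrome that hydroxylates estradiol and is induced through the aryl hydrocarbon receptor, went from 11.2 and 11.4 CPM to 3.31 and 3.11 CPM. Its exons overlap those of CYP1B1-AS1 by 677 bases on the opposite strand. CRISPLD2, a secreted cysteine-rich protein, went from 47.5 and 47.4 CPM to 14.0 and 14.6 CPM. The others were IGFN1 (-1.96), the matrix protease gene ADAMTS16 (-1.44) and CYP24A1, the enzyme that inactivates vitamin D (-1.42), given as log2 fold changes.

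**Figure D1:**
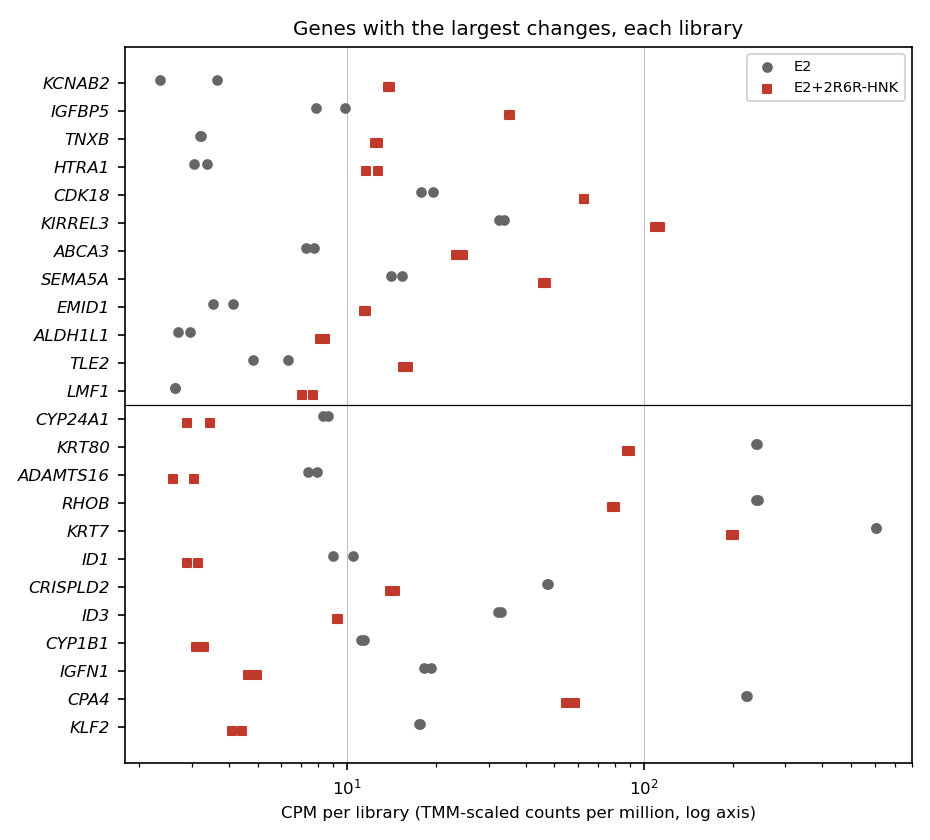
Levels of the 12 largest rises (above the line) and the 12 largest falls (below it), in CPM on a log axis, with 1 point for each library. The 2 E2 libraries (grey circles) and the 2 E2+2R6R-HNK libraries (red squares) do not overlap in any of the 24 genes, which were chosen for this.

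The same 24 genes were then followed in the 6 other conditions, as a description. In 2S6S-HNK without E2, all 24 were nearer on the log scale to E2+2R6R-HNK than to E2, and so were all 24 in E2+2S6S-HNK. The number was 5 in E2+ketamine, 2 in ketamine, 2 in 2R6R-HNK without E2 and 1 in vehicle. KRT7 averaged 241 CPM with 2S6S-HNK, 172 CPM with E2+2S6S-HNK and 199 CPM with E2+2R6R-HNK, but between 409 and 674 CPM in each of the other conditions. KIRREL3 averaged 105 CPM, 89.98 CPM and 112 CPM in those same 3 conditions and 28.9 to 52.2 CPM elsewhere. SEMA5A averaged 43.3 CPM, 45.4 CPM and 46.3 CPM there and 12.1 to 18.9 CPM elsewhere. These levels were shared with both conditions that held 2S6S-HNK. One of them held no E2, and 2R6R-HNK without E2 stayed near E2. The 24 genes were chosen on the E2+2R6R-HNK libraries, while the distances given above use all genes. Levels of the metal-handling gene MT1E lay in another order. MT1E was at 21.8 and 21.5 CPM in 2S6S-HNK and 19.1 and 17.8 CPM in E2+2S6S-HNK, against 49.4 and 50.8 CPM in E2+2R6R-HNK, which was close to ketamine at 50.6 and 53.6 CPM. In 2R6R-HNK without E2 it was at 115 and 120.2 CPM, close to E2+ketamine at 128 and 125 CPM. Other metal-handling genes did not all lie close to ketamine in E2+2R6R-HNK. MT2A was at 344 and 353 CPM against 273 and 278 CPM in ketamine, and SLC39A10 at 21.9 and 21.3 CPM against 37.9 and 41.0 CPM. The labels were used as given, and whether they are right was not tested.

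**Figure D2:**
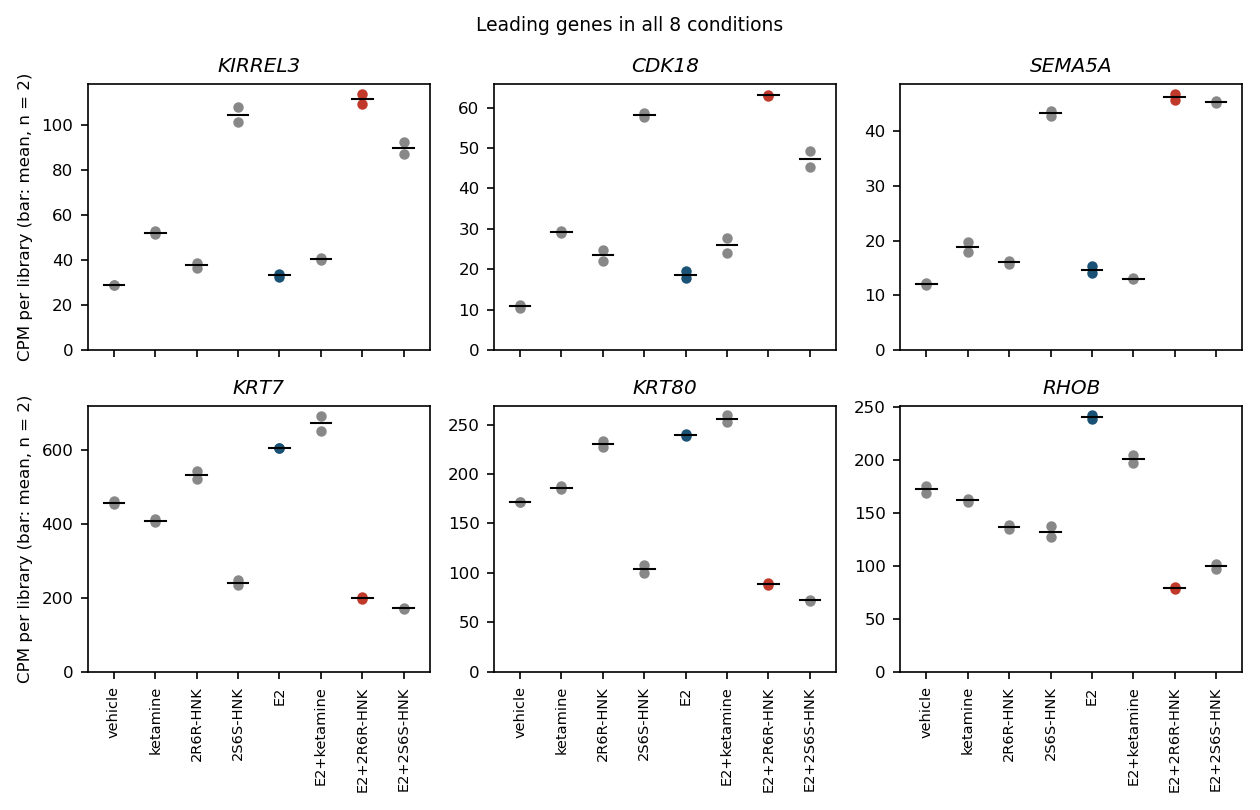
Levels in CPM (linear axis from 0) of the 3 rises and the 3 falls with the highest mean level, in each library of the 8 conditions, with the mean of 2 libraries as a bar; E2 is blue and E2+2R6R-HNK red. For SEMA5A, 2S6S-HNK without E2 and both HNK conditions with E2 averaged 43.3 to 46.3 CPM, and the other 5 conditions 12.1 to 18.9 CPM.

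The question whether E2 changed the response to 2R6R-HNK was tested with the interaction, that is, the log2 fold change with E2 (E2+2R6R-HNK against E2) minus that without E2 (2R6R-HNK against vehicle). It passed with a difference of at least 1 for 909 genes (5.68%), of which 465 (2.91%) were higher with E2 and 444 (2.77%) lower. Without the limit of 1 the interaction passed for 9063 genes (56.6%), 31.5% higher and 25.2% lower. Without E2, 600 genes (3.75%) were called, 292 (1.82%) higher and 308 (1.92%) lower, and 66.6% of genes passed without the limit, 31.7% higher and 34.9% lower. The genes called higher with E2 kept their sign without it in 280 of 355 cases, against 9744 of all 16004 genes tested, with a median log2 fold change of 1.34 with E2 and 0.52 without. Of the genes called lower with E2, 125 of 217 kept their sign, a share close to that of all genes tested, with medians of -1.38 and -0.10. The interaction followed the GC content of the genes, with a Spearman correlation of -0.58 across genes, which are not independent replicates. The corresponding value was 0.20 for the response with E2 and 0.75 for that without. With a correction for GC content and length 480 interactions were called, 348 of them among the 909. Of the called genes with a corrected value, 255 of 341 higher ones and 119 of 193 lower ones then kept their sign without E2, against 9027 of all 15363 genes with a corrected value, and their medians there were 0.29 and -0.11. For the lower genes the share keeping their sign lay below that of all genes before the correction and above it after. The called genes were chosen on their fold change with E2 and not on that without it, so medians of the former are larger in size by construction. Of the effects without E2 given below, those of IGFBP5 (-0.41), CHORDC1 (-0.59), P4HA1 (-0.36), COL11A1 (-0.23), LIF (0.36) and IGFBP4 (0.44) kept their direction at these corrected values.

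The interaction contains the fold change by which the 24 leading genes were chosen, so their values in it are a description. It was at least 1 in size in 21 of them, and smallest for EMID1 at 0.38 ± 0.17, which did not pass the test. With the GC and length correction that of EMID1 was 0.73 and passed, and the smallest was that of KLF2 (-0.66). IGFBP5 had the largest positive interaction at 2.24 ± 0.13, since its log2 fold change was -0.25 without E2. CRISPLD2 had the most negative interaction of the 24 at -2.45 ± 0.08, or -2.36 with the GC and length correction. It stood at 25.5 and 26.0 CPM in vehicle and 42.1 and 42.8 CPM in 2R6R-HNK, so that it rose without E2 and fell with it. CYP1B1 showed the same pattern, at 6.93 and 5.82 CPM in vehicle and 9.59 and 10.1 CPM in 2R6R-HNK. Its interaction was -2.44 ± 0.15, or -2.69 with the correction, where it was the most negative of the 24. Of the 12 falls, 8 had a positive log2 fold change without E2, 6 of them passing the test. With the GC and length correction 5 were positive, 3 of them passing, and 6 of the other 7 fell, among them KRT7 (-0.17) and ID1 (-0.35). Without that correction, E2 alone was higher than vehicle and passed the test in 11 of the 12 falls. The falls of these 11 were thus measured from a level above vehicle. In E2+2R6R-HNK all 12 averaged below vehicle. Of the 12 rises, 11 had a positive log2 fold change without E2, 10 of them passing the test. With the correction 9 of these 12 were positive, 6 of them passing, and 3 were negative, 1 of them passing.

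Outside the 24, the largest positive interactions at a mean of 5 CPM or more were those of HAS2, the hyaluronan synthase (1.94), FAT3, an atypical cadherin (1.78) and NAV3, a microtubule-associated protein (1.77). HAS2 was at 9.37 and 9.95 CPM in vehicle, 3.54 and 3.48 CPM in 2R6R-HNK, 4.47 and 4.38 CPM in E2 and 6.36 and 6.00 CPM in E2+2R6R-HNK. It thus fell with 2R6R-HNK alone and rose with it when E2 was present. PLEKHG4 had the most negative one outside the 24 at that level, -1.94. It stood at 25.8 and 25.1 CPM with E2 and 9.62 and 9.51 CPM with E2+2R6R-HNK.

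The 2 mirror-image metabolites were compared directly at the same dose, time and E2 concentration. This was 1 of 2 pairs of compounds compared, the other being 2R6R-HNK with ketamine, and p-values were adjusted over all genes within each pair. E2+2R6R-HNK and E2+2S6S-HNK differed by a log2 value of at least 1 in 106 genes (0.662%), 48 (0.300%) higher and 58 (0.362%) lower, or in 35 genes with at least 10 counts in every library. At a mean of 5 CPM or more only 4 did: the metallothionein genes MT1E (1.44), MT1X (1.41) and MT2A (1.10) were higher with 2R6R-HNK, and the zinc importer gene SLC39A10 (-1.23) was lower. None of the 63 and none of the 36 genes called against E2 at that level differed by 1 or more between the enantiomers. Smaller differences were frequent, with 8647 genes (54.0%) passing without a limit on fold change (29.1% higher, 25.0% lower), and they followed GC content at a Spearman correlation of 0.67 across genes. With the GC and length correction 41 genes were called, 33 of them among the 106.

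The leading genes were chosen on the same E2+2R6R-HNK libraries that form 1 arm of both drug comparisons, so their differences are again a description. Between the enantiomers they ranged from -0.72 for IGFN1 to 0.54 for KCNAB2, and 17 of 24 passed the test over all genes. KLF2 was lower with 2R6R-HNK by 0.68 (95% interval -0.90 to -0.45). SEMA5A differed by 0.03 (95% interval -0.08 to 0.13), ID1 by 0.10 (-0.17 to 0.37) and CYP24A1 by 0.07 (-0.19 to 0.33), so for these genes a difference above those bounds was not in the interval. Against E2+ketamine, 494 genes (3.09%) differed by at least 1, with 291 (1.82%) higher and 203 (1.27%) lower with 2R6R-HNK. With at least 10 counts in every library the number was 286. In this comparison 52.0% of genes passed without the limit, 26.7% higher and 25.3% lower. The 24 leading genes all differed there in the direction of their change against E2, 18 of them by at least 1. At a mean of 5 CPM or more the largest differences were HTRA1 (1.85) and SEMA5A (1.82) among those higher, and KLF2 (-1.77), KRT7 (-1.76) and the cyclin-dependent kinase inhibitor gene CDKN1C (-1.75) among those lower. SEMA5A was at 15.4 and 14.1 CPM with E2, and E2+ketamine moved it by a log2 value of -0.17.

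**Figure D3:**
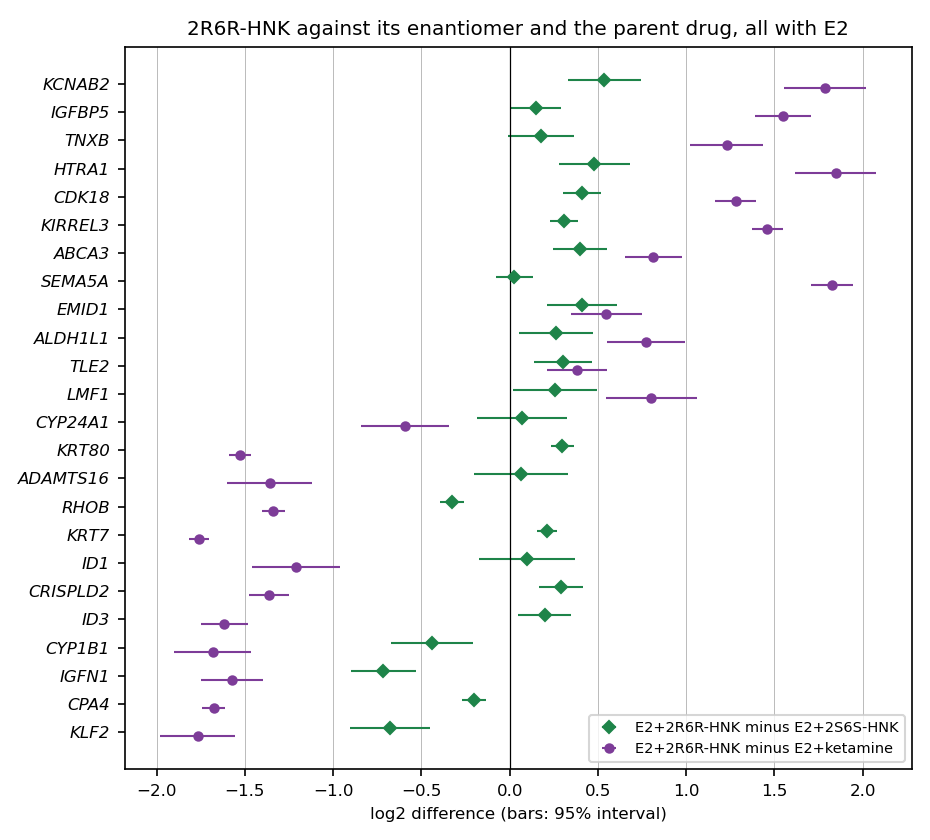
Direct differences in log2 level, with 95% intervals, between E2+2R6R-HNK and E2+2S6S-HNK (green diamonds) or E2+ketamine (purple circles) for the 24 leading genes. Differences from the enantiomer lie between -0.72 and 0.54, and those from ketamine are of at least 1 in 18 genes.

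Metallothioneins are small cysteine-rich proteins that bind zinc and copper, and their genes are switched on by the zinc-sensing factor MTF1 through short metal response elements. SLC30A1 exports zinc from the cell and is a target of the same factor, while SLC39A10 imports zinc. Against E2, 2R6R-HNK gave differences of under 1 in these genes at a mean of 5 CPM or more. Of 8 metallothionein genes tested in a list of 12, 4 rose and 1 fell, with a median log2 fold change of 0.27, and the one called was MT3 (1.10), at a mean of 0.430 CPM, while none was called with the GC and length correction. Of 21 zinc transporter genes tested among 25, 5 rose and 5 fell, shares near those of all genes tested, with a median of -0.10. MT1E was at 59.4 and 57.6 CPM with E2 and 49.4 and 50.8 CPM with E2+2R6R-HNK, a fall (-0.22 ± 0.04, edgeR adjusted p = 1.18e-05). MT2A, the most abundant, rose from 296 and 310 CPM to 344 and 353 CPM.

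The difference between the enantiomers lay in larger part on the side of 2S6S-HNK. MT1E was at 19.1 and 17.8 CPM with E2+2S6S-HNK, below the E2 libraries, and at 128 and 125 CPM with E2+ketamine, above them. MT2A was at 165 and 161 CPM with E2+2S6S-HNK and at 505 and 540.2 CPM with E2+ketamine. SLC30A1 had 2.32 and 2.11 CPM in E2+2S6S-HNK, 6.34 and 6.90 CPM in E2+2R6R-HNK, 9.004 and 7.44 CPM in E2 and 12.7 and 12.9 CPM in E2+ketamine. SLC39A10 had 49.8 and 52.0 CPM in E2+2S6S-HNK, 21.9 and 21.3 CPM in E2+2R6R-HNK, 25.2 and 25.7 CPM in E2 and 17.4 and 16.5 CPM in E2+ketamine. The levels in E2+2R6R-HNK were thus between those of E2+2S6S-HNK and E2+ketamine in these 4 genes. MT1E, MT2A and SLC39A10 were picked for differing between the enantiomers, and the share of all genes lying between was not counted. MT1L overlapped, at 26.6 and 29.4 CPM with E2+2R6R-HNK and 31.1 and 29.2 CPM with E2+ketamine. Of 8 metallothionein genes, 6 were higher and 0 lower than with E2+2S6S-HNK, and 0 and 4 than with E2+ketamine. Of 21 zinc transporter genes, these numbers were 5 and 5, and 8 and 6. Metallothionein genes are near-identical copies of each other, and reads shared between copies could shift counts among them.

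**Figure D4:**
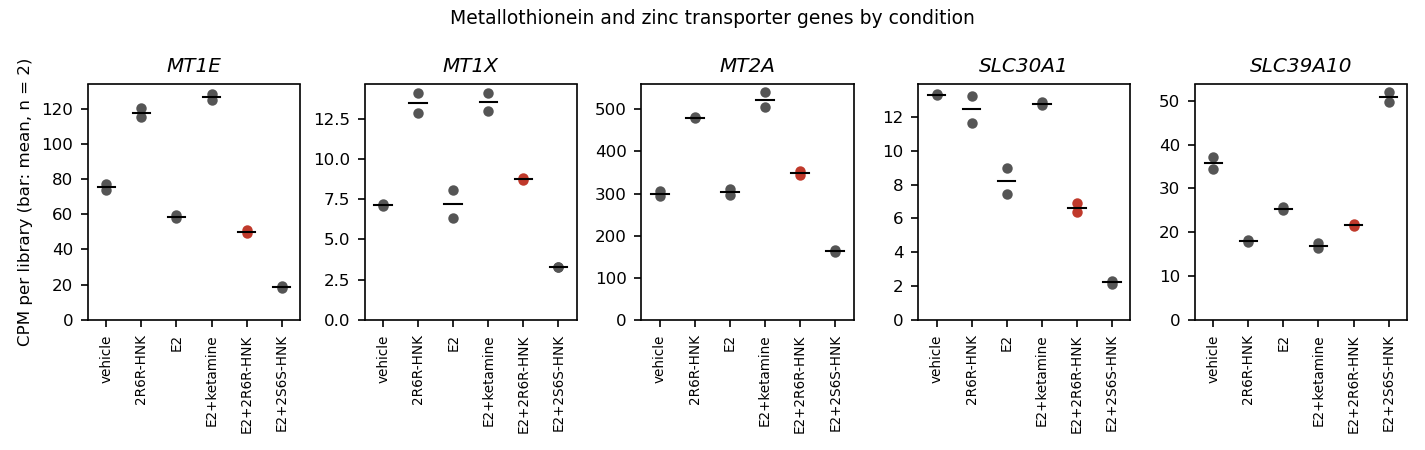
Levels in CPM (linear axes from 0) of 3 metallothionein and 2 zinc transporter genes in each library of 6 conditions, with the mean of 2 libraries as a bar and E2+2R6R-HNK in red. MT1E lies at 49.4 and 50.8 CPM with E2+2R6R-HNK, between 19.1 and 17.8 CPM with E2+2S6S-HNK and 128 and 125 CPM with E2+ketamine.

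The 250 bases before the start of MT1X (chr16:56682220-56682469, plus strand), MT2A (chr16:56608334-56608583, plus strand) and SLC30A1 (chr1:211579162-211579411, minus strand) follow here, from RefSeq on GRCh38.p14 and read 5′ to 3′ on the strand of the gene, since all 3 were higher with E2+2R6R-HNK than with E2+2S6S-HNK and lower than with E2+ketamine. Against E2 they did not move alike, as MT1X and MT2A rose by 0.28 and 0.20 and SLC30A1 fell by 0.31. Capitals mark the metal response element core, TGCACNC or TGCGCNC on either strand.
MT1X: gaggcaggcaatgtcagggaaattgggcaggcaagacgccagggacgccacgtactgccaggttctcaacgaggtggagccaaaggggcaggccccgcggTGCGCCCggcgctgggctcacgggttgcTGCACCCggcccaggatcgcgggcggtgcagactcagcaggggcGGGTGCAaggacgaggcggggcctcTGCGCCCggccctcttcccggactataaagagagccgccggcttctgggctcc
MT2A: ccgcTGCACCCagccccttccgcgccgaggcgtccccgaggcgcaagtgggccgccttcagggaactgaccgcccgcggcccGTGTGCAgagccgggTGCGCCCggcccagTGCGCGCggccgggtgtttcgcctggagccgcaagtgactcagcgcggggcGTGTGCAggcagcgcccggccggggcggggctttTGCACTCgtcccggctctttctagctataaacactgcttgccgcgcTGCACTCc
SLC30A1: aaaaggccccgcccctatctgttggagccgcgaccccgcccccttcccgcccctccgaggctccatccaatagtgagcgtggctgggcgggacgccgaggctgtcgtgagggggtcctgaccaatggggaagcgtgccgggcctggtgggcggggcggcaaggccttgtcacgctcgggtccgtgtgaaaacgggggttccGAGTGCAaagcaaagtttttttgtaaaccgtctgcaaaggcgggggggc
The MT2A stretch held 7 matches, that of MT1X 4 and that of SLC30A1 1. Each stretch was taken from the first listed start of its gene that held the letters, so a match was fixed beforehand. These letters are common. Counting all listed starts of a gene, they were present for 39.3% of the 11212 tested genes that could be matched. In the zinc transporter list they were present for 10 of 19 matched genes (52.6%). Only 2 of the 8 tested metallothionein genes matched the promoter table, and both held the core. A match is a description of the letters.

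In E2+2R6R-HNK against E2, 25.1% of all genes tested rose and 25.4% fell, which is the background for each list. Lists near these shares, such as cytokines (22.2% and 22.2%) or p53 targets (30% and 20%), show nothing particular to their members. Genes for cholesterol synthesis mostly rose with 2R6R-HNK in the presence of E2. Of 25 genes for cholesterol synthesis and its control by the sterol-sensing factor SREBP2, 16 rose and 4 fell, with a median log2 fold change of 0.27 against -0.004 for all genes tested. INSIG1, the feedback regulator of sterol sensing, went from 312 and 311 CPM to 519.6 and 508 CPM (0.72 ± 0.02). MSMO1 and FDPS, enzymes of the pathway, rose by 0.54 and 0.47. The interaction of MSMO1 was 0.99, or 0.54 with the GC and length correction, and its log2 fold change without E2 was -0.44, or 0.10 with it. Fatty acid genes were mixed, with 6 of 19 higher and 4 lower, or 5 and 6 with the GC and length correction. ACSS2, which makes acetyl-CoA from acetate, rose from 87.4 and 93.4 CPM to 199.8 and 188 CPM, a log2 fold change of 1.10, and FASN and SCD rose by 0.43 and 0.46.

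Stress-response genes moved in different directions. Cytosolic heat shock proteins, the chaperones controlled by HSF1, fell in 19 of 28 cases and rose in 3, with a median log2 fold change of -0.29. HSPH1 went from 46.2 and 49.1 CPM to 28.1 and 29.4 CPM (-0.73 ± 0.05), and DNAJA1 (-0.63), CHORDC1 (-0.52) and HSPA8 (-0.48) followed. These 4 fell also with 2R6R-HNK alone, among them CHORDC1 by 1.31. Targets of NRF2, the regulator of antioxidant enzymes, fell in 19 of 28 cases and rose in 3, with a median of -0.32. The glutathione synthesis gene GCLM went from 13.6 and 16.2 CPM to 8.72 and 7.86 CPM (-0.84 ± 0.09), and the quinone reductase gene NQO1 from 100.2 and 98.6 CPM to 61.3 and 61.6 CPM (-0.69 ± 0.04). NQO1 rose by 0.55 without E2. ABCC4 and ME1 fell by 0.64 and 0.62 in this comparison.

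Targets of ATF4, the factor that answers amino acid shortage, were divided, with 18 of 36 higher and 11 lower. ASNS, asparagine synthetase, had 51.3 and 50.5 CPM with E2 and 121 and 126 CPM with E2+2R6R-HNK (1.28 ± 0.04, edgeR adjusted p = 1.38e-32). The mitochondrial folate enzyme gene ALDH1L2 rose by 0.87 and the serine synthesis gene PHGDH by 0.69, while the amino acid transporter gene SLC7A5 fell by 0.72, from 833 and 838 CPM to 508 and 506 CPM. ASNS was also high in E2+2S6S-HNK and E2+ketamine, with log2 fold changes against the same E2 libraries of 1.33 and 1.24. The 250 bases before its start (chr7:97872409-97872658, minus strand, RefSeq on GRCh38.p14, 5′ to 3′) are shown because it led this list, with capitals marking TGATGNAA, the letters of the element that ATF4 and C/EBP factors bind together, searched on both strands.
ASNS: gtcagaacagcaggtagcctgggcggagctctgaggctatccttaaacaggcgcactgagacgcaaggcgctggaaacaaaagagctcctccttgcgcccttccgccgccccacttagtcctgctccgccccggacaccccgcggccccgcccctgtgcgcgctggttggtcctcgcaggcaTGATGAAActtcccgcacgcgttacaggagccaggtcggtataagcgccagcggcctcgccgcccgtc
The stretch shown was again picked for holding the element. Counting all listed starts of a gene, it was present for 2.47% of the 11212 matched genes and 4 of the 27 (14.8%) in the list. Chaperones of the endoplasmic reticulum were mixed, with 8 of 20 higher, among them XBP1 (0.51), and 6 lower, among them HSPA5 (-0.32).

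Of 19 tested genes of the circadian clock and its output, 11 rose and 2 fell, with a median log2 fold change of 0.33. TEF, a clock-driven bZIP factor, went from 14.9 and 14.9 CPM to 30.8 and 31.0 CPM (1.06 ± 0.07). The repressor genes PER3 (0.82), PER1 (0.59) and PER2 (0.58) rose with it. PER3 went from 13.9 and 13.3 CPM to 23.5 and 24.6 CPM, and its log2 fold change without E2 was -0.24, or 0.11 with the GC and length correction. The 250 bases before PER1 (chr17:8152405-8152654, minus strand) and TEF (chr22:41367205-41367454, plus strand), from RefSeq on GRCh38.p14 and read 5′ to 3′, show in capitals the E-box CACGTG, the palindromic letters that CLOCK and BMAL1 bind.
PER1: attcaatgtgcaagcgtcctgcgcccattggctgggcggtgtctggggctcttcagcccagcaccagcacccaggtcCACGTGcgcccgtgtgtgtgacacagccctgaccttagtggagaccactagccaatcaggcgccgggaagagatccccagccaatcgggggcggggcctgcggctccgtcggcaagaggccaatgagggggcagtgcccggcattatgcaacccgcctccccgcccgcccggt
TEF: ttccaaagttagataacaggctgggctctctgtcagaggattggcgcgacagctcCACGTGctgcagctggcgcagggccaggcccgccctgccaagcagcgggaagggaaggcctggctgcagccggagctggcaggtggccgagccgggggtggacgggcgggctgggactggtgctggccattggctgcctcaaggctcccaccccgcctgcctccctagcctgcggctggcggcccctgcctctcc
Each held 1 match, and a match was fixed beforehand, since the stretches were picked for holding the E-box. Counting all listed starts of a gene, the E-box was present for 6 of 17 (35.3%) matched clock genes and 10.8% of the 11212.

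In energy metabolism, 24 of 37 glycolysis and hypoxia genes rose and 6 fell, with a median log2 fold change of 0.14, or 17 and 8 with a median of 0.07 under the GC and length correction. CA9, a carbonic anhydrase induced in low oxygen, went from 2.19 and 2.12 CPM to 7.26 and 8.17 CPM (1.84 ± 0.14), and was higher than with E2+2S6S-HNK by 0.90. The aldolase gene ALDOC rose by 1.20, the glucose transporter gene SLC2A3 by 0.60, the enolase gene ENO2 by 0.56 and the collagen prolyl hydroxylase gene P4HA1 by 0.47. P4HA1 fell by 0.85 without E2, and its interaction was 1.32, or 0.91 with the GC and length correction. Subunits of the respiratory chain were divided, with 18 of 75 higher and 26 lower. Genes for DNA replication fell in 26 of 46 cases and rose in 7, with a median of -0.13. UHRF1, which maintains DNA methylation, went from 341 and 347 CPM to 243 and 247 CPM (-0.49 ± 0.03) and the helicase subunit gene MCM4 from 545 and 539 CPM to 395 and 402 CPM (-0.44 ± 0.02), while E2F1 rose by 0.39. Mitotic genes had no common direction, with 19 of 45 higher, 11 lower and a median of 0.00.

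Genes for cytosolic ribosomal proteins rose in 54 of 75 cases and fell in 8, with a median log2 fold change of 0.12, or in 48 and 8 with a median of 0.08 under the GC and length correction. RPS3A went from 1376.5 and 1393 CPM to 1796.5 and 1783 CPM (0.37 ± 0.02), and RPS29 rose by 0.35. RPS10 (-0.61) and RPL17 (-0.44) fell, and their exons are shared with the read-through genes RPS10-NUDT3 and RPL17-C18orf32, between which counting could have split reads. Processed copies of ribosomal protein genes could do the same for other members. Tubulin genes fell in 10 of 18 cases and rose in 3, with TUBB3 at -0.60.

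**Figure D5:**
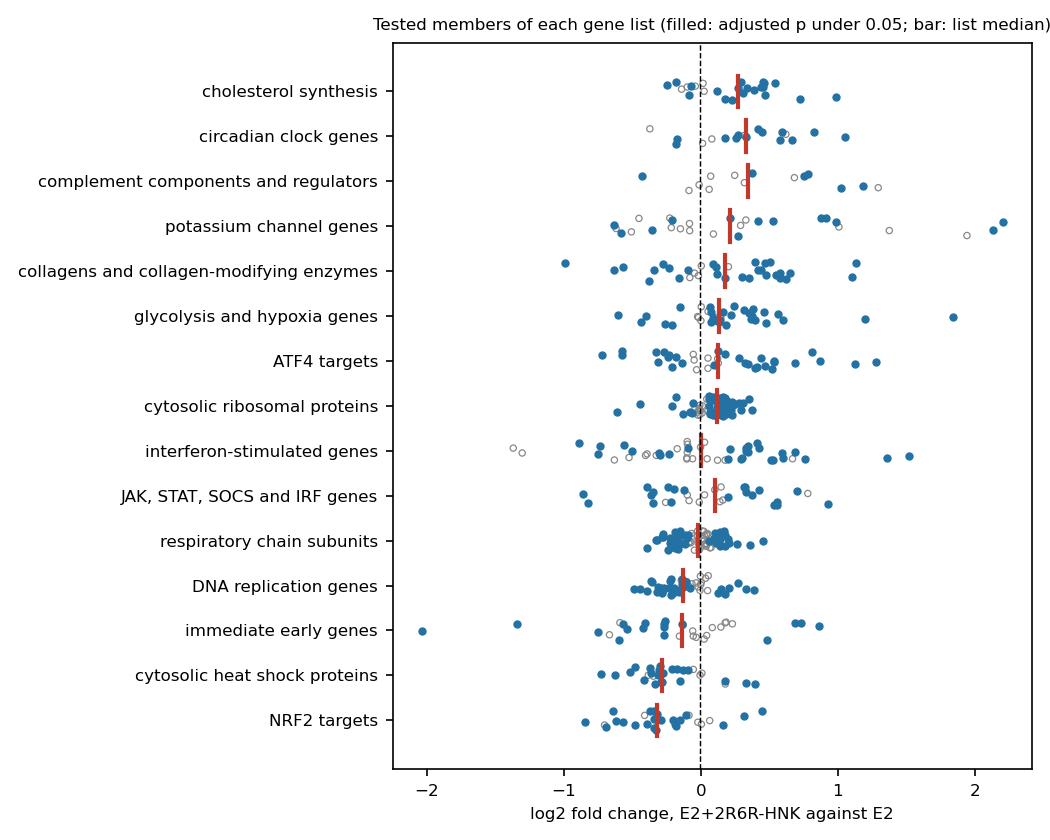
Log2 fold change of E2+2R6R-HNK against E2 for each tested member of 15 gene lists, with filled points at an adjusted p under 0.05, the median of each list as a red bar and the median of all genes tested as a dashed line. Cholesterol synthesis, clock and complement genes have medians of 0.27 to 0.35, and heat shock and NRF2 genes medians of -0.29 and -0.32.

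Genes of the matrix and of cell contact changed in both directions. Of 33 tested genes for collagens and their modifying enzymes, 19 rose and 9 fell. COL11A1 went from 86.1 and 80.0 CPM to 182 and 182 CPM (1.13 ± 0.03), COL8A1 rose by 0.65 and COL4A5 by 0.62, and COL16A1 fell by 0.99. With 2R6R-HNK alone COL11A1 fell by 0.50, and its interaction was 1.63. THBS1, thrombospondin, a target of YAP and TGF-beta, had the largest change of its list, from 2214 and 2185 CPM to 824 and 844 CPM (-1.40 ± 0.02, edgeR adjusted p = 9.54e-46), whereas 18 of the 37 tested genes of that list rose and 15 fell, or 14 and 15 with the GC and length correction. ACTG2, a smooth muscle actin, rose by 0.87, and SKIL and ANKRD1 fell by 0.77 and 0.73. Among matrix proteases and inhibitors 4 of 19 rose and 6 fell, or 1 and 7 with the GC and length correction, with the urokinase gene PLAU at -0.81. Hyaluronan genes fell in 7 of 11 cases, including the proteoglycan gene VCAN (-0.54), and 2 rose, one of them HAS2 (0.48).

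Keratins, a list made after the values were seen, fell in 7 of 16 tested cases and rose in 1. KRT81 went from 14.7 and 16.5 CPM to 8.68 and 9.38 CPM (-0.79), KRT18 from 606 and 614 CPM to 397 and 406 CPM (-0.60) and KRT8 by -0.43, while KRT17 rose by 0.66. Exons of KRT8 and KRT18 overlap in the annotation. In the family of IGF-binding proteins, also listed after the values were seen, 4 of 7 rose and 3 fell. IGFBP7 went from 57.5 and 63.6 CPM to 143 and 131 CPM (1.18 ± 0.04), IGFBP2 rose by 0.54 and IGFBP6 fell by 0.39. The largest fall was that of IGFBP1 (-1.98 ± 0.72), at a mean of only 0.156 CPM. Of the fibroblast and pericyte markers 3 of 11 tested rose, with FBLN1 at 0.84 and FN1 at 0.26, and 5 fell, with COL1A1 at -0.24. Of 8 genes of the aryl hydrocarbon receptor list, made after the values were seen, 4 fell and 1 rose, with AHR at -0.45.

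Immediate early genes fell in 13 of 31 tested cases and rose in 4. Besides KLF2, the factors KLF6 (-0.75) and JUNB (-0.59) fell. EGR1 rose, from 36.99 and 35.8 CPM to 66.8 and 65.5 CPM (0.86 ± 0.05). Complement genes rose in 5 of 14 tested cases and fell in 1, with the C1 inhibitor gene SERPING1 going from 3.20 and 3.29 CPM to 7.23 and 7.54 CPM (1.19 ± 0.12), C1RL at 0.78 and C1R at 0.75. Exons of C1R and C1RL overlap, so their counts may not be independent. Cytokine and chemokine genes were split, 6 higher and 6 lower of 27 tested, shares near those of all genes tested. IL11, an IL6-family cytokine, fell from 83.2 and 84.5 CPM to 43.0 and 45.5 CPM (-0.92 ± 0.04), LIF of the same family fell by 0.74, and the chemokine gene CXCL16 rose by 0.82. LIF rose by 0.74 without E2, so that its interaction was -1.48. It was at 51.2 and 50.6 CPM in vehicle, 85.0 and 82.6 CPM in E2 and 51.8 and 48.7 CPM in E2+2R6R-HNK.

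The study drew attention to STAT3 and to type I interferon genes. Its main expression changes were taken against vehicle, while the baseline here is E2. STAT3 rose from 152 and 149.8 CPM to 198.5 and 192 CPM, a log2 fold change of 0.38 ± 0.03 (edgeR adjusted p = 5.26e-16), below the limit of 1 used for a call. The corepressor gene SIN3A had a log2 fold change of -0.07 ± 0.04 (edgeR adjusted p = 0.143), with 84.1 and 82.7 CPM against 77.3 and 82.1 CPM. EEF2, the elongation factor of translation, rose by 0.33 ± 0.02, and its kinase gene EEF2K by 0.38. Of 47 interferon-stimulated genes tested among 50, 18 rose and 9 fell, with a median of -0.001. STAT2 rose by 0.42, the immunoproteasome gene PSMB9 by 0.60 and IFI6 by 0.53, while SP110 fell by 0.56. Of 31 genes for JAK, STAT, SOCS and IRF proteins, 11 rose and 10 fell, or 10 and 12 with the GC and length correction. IRF1, a transcription factor of the interferon response, went from 21.5 and 21.995 CPM to 11.7 and 12.9 CPM (-0.82 ± 0.07), with a rise of 0.61 without E2 and an interaction of -1.43. STAT5A (0.56) and STAT5B (0.55), whose exons overlap, rose, as did SOCS7 (0.70).

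Genes tied to neurons and to the receptors of ketamine were mostly low. Of 12 NMDA and AMPA receptor genes, 6 were tested, and 3 rose while the other 3 did not pass the edgeR test, or 2 rose and 1 fell with the GC and length correction. The associated protein gene GRINA had a log2 fold change of 0.14, or 0.02 with the correction (edgeR adjusted p = 0.507), GRIN2D had 367 to 406 counts in the 4 libraries, and GRIN1 had 28 and 17 counts with E2 and 41 and 32 with E2+2R6R-HNK. GRIA3 had 0 counts in all 4, and GRIN2A and GRIA2 at most 2. The synaptic scaffold gene DLG4, encoding PSD95, rose from 20.5 and 23.2 CPM to 41.7 and 38.2 CPM (0.87 ± 0.06), while 12 of 35 tested synaptic and translation-control genes rose and 8 fell, or 8 and 10 with the GC and length correction. Potassium channel genes rose in 9 of 27 tested cases and fell in 4, with KCNAB3 (0.99), KCNG1 (0.91) and KCNJ8 (0.88) after KCNAB2. The summed neuronal marker list stayed low, at 3.04 to 4.05 CPM with E2 and 3.45 to 4.33 CPM with E2+2R6R-HNK, with STMN2, NEFM and GAD2 at 0 counts in all 4.

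Estrogen receptors, their coregulators and classical target genes fell in 7 of 21 tested cases and rose in 2. The cyclin gene CCND1 went from 264 and 259 CPM to 188 and 187 CPM (-0.48 ± 0.03), and IGFBP4 fell by 0.37. XBP1, also an estrogen target in breast cells, rose from 151 and 153 CPM to 219 and 213 CPM. IGFBP4 rose without E2, by 0.97, with an interaction of -1.34, or -0.92 with the GC and length correction. It was at 124 and 129 CPM in vehicle, 229 and 230 CPM in E2 and 176 and 179 CPM in E2+2R6R-HNK. Of the abundant nuclear noncoding RNAs 10 of 21 fell, among them NEAT1 (-0.65), and 4 rose, among them H19 (0.69) and MEG3 (0.68). Prostanoid genes fell in 6 of 17 tested cases and rose in 2, and of 11 annexin genes 3 rose and 3 fell, with ANXA1, a mediator of glucocorticoid action, going from 77.2 and 79.6 CPM to 41.6 and 41.1 CPM (-0.92 ± 0.04). Targets of p53 rose in 9 of 30 cases and fell in 6, or 8 and 9 with the GC and length correction. These shares were near those of all genes tested. Neuropeptide genes rose in 9 of 27 and fell in 4, and of 5 C/EBP factor genes 2 rose, with CEBPD at 0.85, and 2 fell.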

How the data were processed

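RNA-seq counts of 16 HMC3 libraries were analysed, 2 for each of 8 conditions, and the groups come from the labels. The authors deposited raw read counts for each gene. Per the study's methods and processing notes, paired reads were aligned to hg19 with TopHat2 and Bowtie2 (2.0.14 and 2.2.6 in the processing notes, with other versions in the methods) and read pairs with a unique position were counted with featureCounts 1.4.6. Strandedness of the counting is not given in the sources used here. Of counts from 1 to 9, 65.8% were even, against 49.9% of counts of 500 or more, so both reads of a pair may have been counted at times, and halved counts were tried.

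Counts were analysed with edgeR 4.0.16 in R 4.3.3 (limma 3.58.1). filterByExpr kept 16004 of 25370 genes, totals were scaled by TMM, and 1 quasi-likelihood fit with a mean per condition (8 residual degrees of freedom) gave every comparison, with Benjamini-Hochberg adjustment over all genes. Called genes had an adjusted p under 0.05 and an absolute log2 fold change no smaller than 1. In gene lists, "rose" and "fell" mean an adjusted p under 0.05. The background shares for the latter are 25.1% and 25.4% of all genes for E2+2R6R-HNK against E2. With the GC and length correction they are 23.4% and 28.3% of 15363 genes. CPM are on TMM-scaled totals. With 2 libraries against 2, no exact permutation test could go below p = 0.333.

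Named genes were the 12 largest rises and falls without overlap whose mean reached 5 CPM, up to 4 per list, the 4 largest differences each way in the other comparisons, STAT3, SIN3A, EEF2, ESR1 and cell type markers. The comparison and its lists were chosen with earlier results of these data known. Of 45 lists, 4 were made after values were seen here. Some genes that this rule names are not reported here. Positions, overlaps and GC content came from GENCODE v44 on GRCh37 (21539 symbols matched, and 1487 more through older symbols). Alternatives were DESeq2 1.42.0, other filters and normalizations, a replicate block, a GC and length correction (loess, span 0.5), fits on the compared groups only, halved counts (added after seeing the data) and leaving out each library. The main comparison was tested on simulated data of 15726 genes: edgeR recovered 93% of genes with a log2 fold change of 1.5 and passed 69% of those with 0.5, with 2 false calls. With a GC trend added it made 93 false calls over 15714 genes, and 1 over 15105 genes once corrected. The added trend was one in GC content, which the correction takes out by design. Other forms of bias, and a GC trend in the interaction, were not tested. Without the limit on fold change, false passes numbered 8 with no trend, 7957 with the trend and 11 once corrected. Counts of genes that rose or fell in lists use no such limit.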

Additional observations from a re-analysis of the deposited data

Results flagged for a closer look

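The effect of 2R6R-HNK differed with and without E2 by the interaction test for 909 genes, and by a log2 value of at least 1 for 46 of the genes that the naming rule takes, cell type markers left aside. Among the leading rises, the effect with E2 minus that without was 1.12 for KCNAB2, 2.24 for IGFBP5, 1.31 for TNXB, 1.11 for HTRA1, 1.37 for KIRREL3, 1.11 for ABCA3, 1.24 for SEMA5A, 1.35 for ALDH1L1 and 1.11 for LMF1. Among the leading falls it was -1.045 for KLF2, -1.35 for CPA4, -1.62 for IGFN1, -2.44 for CYP1B1, -2.06 for ID3, -2.45 for CRISPLD2, -1.74 for ID1, -1.825 for KRT7, -1.27 for RHOB, -1.61 for ADAMTS16, -1.86 for KRT80 and -1.78 for CYP24A1. Outside these it was 1.94 for HAS2, 1.78 for FAT3, 1.77 for NAV3 and -1.94 for PLEKHG4. For genes taken from the lists and the drug comparisons it was 1.63 for COL11A1, 1.46 for CA9, 1.32 for P4HA1, 1.10 for DNAJB9, 1.06 for PER3, 1.06 for ACTG2, 1.03 for ASNS, 1.03 for CEBPG and 1.02 for ALDH1L2 on the positive side. On the negative side it was -1.83 for CDKN1C, -1.48 for LIF, -1.43 for IRF1, -1.41 for JUNB, -1.34 for IGFBP4, -1.26 for THBS1, -1.25 for NQO1, -1.21 for SLC7A5, -1.12 for HYAL3, -1.09 for COL16A1, -1.06 for TP53I3 and -1.01 for IGFBP6. The leading genes were chosen by a fold change that the interaction contains. With the GC and length correction all 46 kept their sign, with sizes of 0.59 to 2.69, and 30 stayed past both thresholds. Among the leading genes SEMA5A (0.98), KLF2 (-0.66) and RHOB (-0.96) then had a difference under 1. The same held for ASNS (0.70), ALDH1L2 (0.59), DNAJB9 (0.62), P4HA1 (0.91), PER3 (0.73) and CEBPG (0.65). On the negative side it held for SLC7A5 (-0.85), TP53I3 (-0.78), JUNB (-0.95), COL16A1 (-0.79), HYAL3 (-0.74), IGFBP4 (-0.92) and IGFBP6 (-0.59).

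No group held 4 or more libraries, so no test for a single distant library could be made. The levels of the leading genes in 2S6S-HNK given without E2, which lay near those of E2+2R6R-HNK in all 24, stand with the values above.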

How the results depend on the processing

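None of the 173 named genes followed through the alternatives changed direction in E2+2R6R-HNK against E2, and the 24 leading genes stayed called in each. With the GC and length correction the balance of rises and falls turned in 5 of 45 gene lists (fatty acid, p53, YAP and TGF-beta, synaptic and JAK/STAT genes), 5 more became or ceased to be equal, and 2 medians changed sign, from 0.019 to -0.016 for fatty acid genes and from 0.018 to -0.012 for YAP and TGF-beta genes. All genes shifted towards falls as well, from 25.1% higher and 25.4% lower to 23.4% and 28.3% with that correction. Requiring at least 10 counts in every library, which tests fewer genes, gave 371 called genes (231 higher and 140 lower), 35 for the enantiomers and 286 against E2+ketamine. The GC and length correction gave 480 interactions and 41 genes for the enantiomers, and 475 and 42 together with the replicate block. DESeq2 gave 47 for the enantiomers. The cause of these differences was not tested. Leaving out each library in turn gave 510 to 540 called genes (308 to 347 higher and 185 to 202 lower), 874 to 959 interactions, 94 to 135 genes for the enantiomers and 454 to 473 against E2+ketamine; a lone library was then assumed to vary like the other groups. The replicate block gave 574 called genes, 565 of them shared with the fit without it, and 904, 101 and 491 in the other comparisons. Same-numbered libraries of E2 and E2+2R6R-HNK showed no common deviation (correlation -0.03). Over all pairs of groups the values ran from -0.15 to 0.09. Whether same-numbered libraries were handled together is not stated in the sources used here, and these correlations cannot decide it. Of the 503 genes called with the GC and length correction 458 were among the 572, and of 497 called by DESeq2 495 were. Upper-quartile normalization and library totals moved the median log2 fold change from -0.004 to 0.014 and -0.021. For genes near 1 CPM, depth limits which of the calls can be relied on.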
